A study of Mus musculus with 29 samples.

Results

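Spinal cords of miR-128 knockout mice were compared with those of wild-type mice 4 h after aortic cross clamping (ACC), an operation that starves the thoracic and lumbar cord of blood. The comparison rests on 6 of the 29 libraries of the series, chosen by their labels: 3 miR128KO ACC libraries (mice 3, 4 and 5) and 3 WT ACC libraries (mice 1, 2 and 3). Each library is thoracic and lumbar cord of 1 mouse. The knockout is labelled a global knock out on a C57BL6 background, the wild type is labelled C57BL-6J, and ages are not given. Which miR-128 locus was deleted is not stated. Sham mice of the same genotypes (4 miR128KO, 3 WT) and 5 miR155KI ACC mice, which carry a knock-in of miR-155 in motor neurons, served as reference groups. Library 1 of the miR128KO ACC group was left out as in the study, which gave as its reason that this cord resembled Sham cords, and mouse 2 of that group is not analysed here. That choice used the measured response to clamping, so results are also given with library 1 put back.

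miR-128 is a microRNA enriched in brain and spinal neurons. Its mature strand guides Argonaute proteins to messenger RNAs, where the seed near its 5′ end pairs with complementary sites in 3′ untranslated regions (3′ UTRs) and lowers the stability or translation of the transcript. In mouse forebrain neurons its loss is known to raise neuronal excitability, and its targets there include components of ERK signalling and ion channel regulators. The microRNA is made from a pair of hairpins that lie in host genes and are transcribed with them. From RefSeq (GRCm38.p6), the mature strand is shown with its seed, bases 2 to 8, in capitals, and the hairpins with the mature strand in capitals, since they are the sources of the microRNA.
miR-128-3p: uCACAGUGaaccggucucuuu
Mir128-1 hairpin: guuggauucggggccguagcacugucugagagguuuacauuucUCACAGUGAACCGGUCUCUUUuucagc
Mir128-2 hairpin: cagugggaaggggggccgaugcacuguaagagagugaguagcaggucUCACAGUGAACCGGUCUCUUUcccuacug
Mir128-1 lies at chr1:128202361-128202430 on the plus strand, in an intron of R3hdm1, and Mir128-2 at chr9:112118636-112118711 on the minus strand, in an intron of Arpp21. The strongest site class, the 8mer, is CACTGTGA on the sense strand of the transcript. Below, 2 genes whose knockout levels stood apart are described that hold an 8mer, and their sites are shown with the 8mer in capitals (GRCm38, minus strand, chr2:91062740-91062761 for Slc39a13 and chr5:73633035-73633056 for Sgcb).
Slc39a13: gggagagagaccgaCACTGTGA
Sgcb: tggcaatcttcttgCACTGTGA

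Total counts ran from 17260022 to 18582027 in WT ACC and from 19792349 to 28603098 in miR128KO ACC, so knockout libraries were deeper. Sex was not balanced. The 6 WT libraries of both treatments expressed Xist and had 0 counts of the Y-linked genes checked. Among the miR128KO ACC libraries mouse 3 was of this kind, while mice 4 and 5 carried Y-linked counts, with Ddx3y at 97.6 and 109 CPM (counts scaled by TMM to a common library total). In miR128KO Sham, 3 of 4 libraries carried them. Sex and genotype therefore overlap in part, and Y-linked genes and Xist are not read as genotype differences here. The left-out library had 33056693 counts and showed no clamp response, with the heat shock gene Hspa1b at 2.78 CPM against 501 to 594 CPM in the other miR128KO ACC libraries. Neuron markers were present throughout, with a summed level of 9000 to 9720 CPM in WT ACC and 8720 to 10700 CPM in miR128KO ACC.

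The clamped knockout differed from the clamped wild type at 1 of 19581 tested genes. Gm28438, an unprocessed pseudogene on chromosome 1 (24612775 to 24613119), was higher in the knockout, and no gene was lower. This was edgeR's quasi-likelihood test with Benjamini-Hochberg adjustment at 0.05, fitted on 22 libraries, and it called 0.00511% of genes higher and 0% lower. At an unadjusted p under 0.05 there were 710 higher genes (3.63%) and 509 lower genes (2.6%), 6.23% of all genes together. The groups did not overlap for 1032 higher genes (5.27%) and 912 lower genes (4.66%). The median SE of a log2 difference was 0.15, and 120 of the 15791 genes with a mean of at least 1 CPM differed by more than 1 on the log2 scale. DESeq2 on the same libraries called 17 genes higher and 10 lower, of which 4 were Y-linked.

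Gm28438 stood at 68.1, 71.8 and 59.3 CPM in the miR128KO ACC libraries and at 4.86, 2.68 and 3.95 CPM in WT ACC. Its log2 difference was 4.12 (SE 0.553, 95% interval 2.95 to 5.29, adjusted p = 0.025), with every knockout library far above every wild-type one. The difference was 3.91 to 4.32 over 19 alternatives, with adjusted p from 2.88e-13 to 0.458, and the call was lost when any of the 6 libraries was left out. The mitochondrial gene mt-Nd3, which encodes a subunit of respiratory complex I, had the opposite pattern, with 2.62, 3.84 and 3.19 CPM in the knockout and 63.9, 56.0 and 80.3 CPM in the wild type. Its log2 difference was -4.36 (SE 0.68, adjusted p = 0.0538). Their sum was 62.5 to 75.7 CPM in miR128KO ACC and 58.7 to 84.3 CPM in WT ACC, so the groups overlapped in the sum and separated in how it was divided. In the GENCODE M21 transcripts the pair is identical at 344 of 345 bases. The single difference is T3C, counted from the first base of mt-Nd3 (mt-Nd3 base first, then Gm28438), which is position 9461 of the mitochondrial genome. Counts of both are therefore uncertain, because near-identical copies compete for the same reads. The neighbouring mitochondrial tRNA gene mt-Tg had no count in any knockout library and 68 counts over the 3 WT ACC libraries, at least 31.3-fold lower in the knockout at a floor of 3 counts over the group.

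The wild-type Sham libraries were not alike for this pair. Gm28438 took 6.9% of the pair's counts in WT Sham 1, 52.4% in WT Sham 2 and 95.2% in WT Sham 3, against 4.57 to 7.07% in WT ACC and 94.5 to 96.3% in the 7 knockout libraries of the fit. Library WT Sham 3 thus resembled the knockout, and WT Sham 2 lay between. The miR155KI libraries resembled WT ACC, at 3.9 to 5.82%.

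Gabra2, which encodes the alpha2 subunit of the GABA-A receptor, followed the same libraries. It stood at 167, 152 and 167 CPM in miR128KO ACC and at 48.4, 53.6 and 56.6 CPM in WT ACC. The log2 difference was 1.62 (SE 0.266, adjusted p = 0.0588), the groups were far apart, and the left-out knockout library had 171 CPM. Among Sham cords the knockout had 118 to 175 CPM, whereas the wild type had 50.2, 124 and 162 CPM for mice 1, 2 and 3, so these groups overlapped. Gabra2 passed when the fit held the 6 clamped libraries alone (adjusted p = 2.21e-07) or the 11 ACC libraries (adjusted p = 2.95e-09), and its adjusted p ran from 2.73e-10 to 0.625 over 19 alternatives. Expression of Gabra2, Wdfy1 and Ide is known to vary between C57BL/6 stocks, as is the mt-Nd3 base that separates it from Gm28438. Of 12 tested genes known for such variation, 2 were higher (Gabra2 and Wdfy1) and 1 lower (Nlrp12, under 1 CPM) at an unadjusted p under 0.05. Over all genes, 3.63% were higher and 2.6% lower at that level.

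Aim2, a cytosolic DNA sensor of innate immune cells, stood at 1.49, 1.94 and 2.93 CPM in miR128KO ACC and 5.80, 6.52 and 6.04 CPM in WT ACC (log2 difference -1.51, SE 0.314, adjusted p = 0.126). The WT Sham libraries had 5.80, 3.66 and 1.38 CPM, again with mouse 3 among knockout values. Wdfy1, an endosomal protein that acts in Toll-like receptor signalling, had 41.6, 40.3 and 64.6 CPM in the knockout and 18.3, 16.9 and 17.7 CPM in the wild type (log2 difference 1.47, SE 0.397, adjusted p = 0.493). Its WT Sham levels were 15.7, 29.2 and 61.7 CPM, and miR128KO Sham 2 stood at 15.8 CPM. Lrmda, a melanocyte differentiation gene, was near 1 CPM, with 0.103, 0.43 and 0.488 CPM against 1.52, 1.59 and 1.76 CPM (log2 difference -2.18, SE 0.384, adjusted p = 0.0538). Its 0.103 CPM in miR128KO ACC 3 lay under the level of 3 counts, which is 0.154 CPM in that library. Ide, the insulin-degrading enzyme, did not separate the clamped groups, at 52.3 to 55.8 CPM and 53.9 to 56.9 CPM, but stood at 106 CPM in WT Sham 1 and at 100 to 116 CPM in miR155KI ACC. Gm28438, mt-Nd3, Aim2 and Lrmda are described because their p-values were seen to be small. Whether the stock of the mice differed between groups was not tested, and genotype and these library patterns cannot be told apart within the clamped cords.

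**Figure D1:**
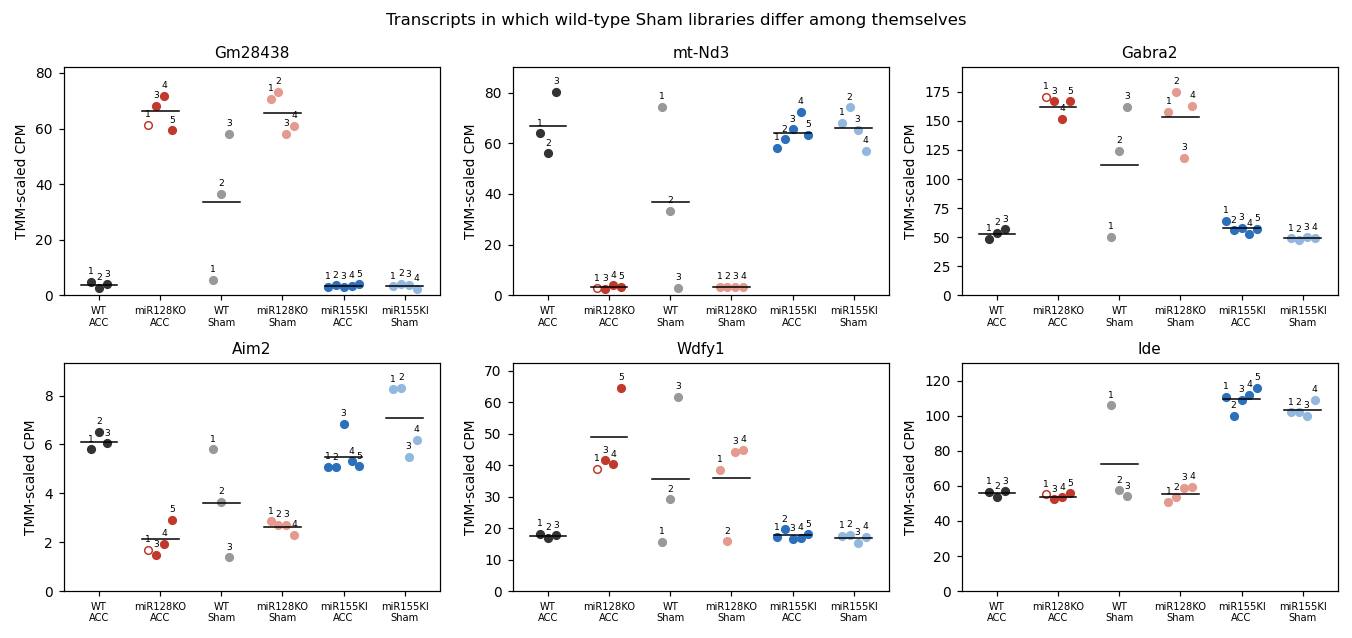
TMM-scaled CPM (vertical axes, from 0) of 6 transcripts in each 4 h library, by group, with the mouse number above each point, the group mean as a line and the left-out miR128KO ACC library 1 as an open circle. WT Sham 3 lies with the knockout libraries for Gm28438 (58.1 CPM), mt-Nd3 (2.92 CPM), Gabra2 (162 CPM) and Aim2 (1.38 CPM), WT Sham 2 lies between for Gm28438 (36.6 CPM) and mt-Nd3 (33.3 CPM) but at 124 CPM within the miR128KO Sham range for Gabra2, and WT Sham 1 stands apart from WT ACC for Ide (106 CPM).

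For 8 of 19581 genes (0.0409%) the 7 knockout libraries of both treatments all stood above the 15 other 4 h libraries, and for 0 genes (0%) all stood below. They were Slc39a13, Tiparp, Grin2d, Rnf169, Polr3e, Sgcb, Sgpp1 and Gm28438. This set was chosen on the values after they were seen, so the values below describe it and the separation is no test. In the left-out library, which the choice did not use, 7 of the 8 also stood above those 15 libraries. The exception was Rnf169. The share of all genes for which the left-out library stood above those 15 was not counted, so the 7 of 8 has no background to set it against.

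Slc39a13 encodes the zinc transporter ZIP13, which moves zinc out of intracellular vesicles and the Golgi. It stood at 36.7, 38.9 and 34.8 CPM in miR128KO ACC and at 24.8, 27.3 and 28.5 CPM in WT ACC. The log2 difference was 0.45 (SE 0.0897, adjusted p = 0.0878), and in Sham it was 0.39 (SE 0.0834, adjusted p = 0.194). Every knockout library, with or without Y-linked counts, lay between 34.8 and 39.5 CPM, above the highest other value of 32.0 CPM. Its 3′ UTR of 1112 bases holds the 8mer shown above.

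Tiparp encodes a poly(ADP-ribose) polymerase that is a target and repressor of the aryl hydrocarbon receptor. Its levels were 60.6, 47.7 and 44.7 CPM in miR128KO ACC and 31.8, 27.7 and 36.8 CPM in WT ACC. The log2 difference was 0.67 (SE 0.134, adjusted p = 0.0878) in ACC and 0.53 (SE 0.126, adjusted p = 0.27) in Sham. Grin2d, the GluN2D subunit of the NMDA receptor, stood at 41.5, 48.8 and 44.8 CPM against 29.6, 33.6 and 31.6 CPM. Its log2 difference was 0.51 (SE 0.111, adjusted p = 0.167) in ACC and 0.44 (SE 0.103, adjusted p = 0.27) in Sham. DESeq2 called Slc39a13, Tiparp and Grin2d higher in the knockout in the ACC and the Sham comparison. These genes were chosen on the libraries of both comparisons, so the calls are no independent test. Grin2d holds a 7mer-m8 site (CACTGTG) for miR-128-3p. Gabra2 and Wdfy1, which are outside this set, also hold a 7mer-m8. Tiparp, Rnf169 and Sgpp1 hold only a 6mer (ACTGTG), and Polr3e holds no site. Among the genes whose 3′ UTRs are counted below, 6.2% hold an 8mer, 16.9% a 7mer-m8, 16.2% only a 6mer and 52.4% no site.

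Rnf169, a ubiquitin-binding protein of DNA double-strand breaks, stood at 54.7, 40.6 and 35.3 CPM against 31.7, 29.0 and 26.8 CPM (log2 difference 0.58, SE 0.142, adjusted p = 0.321). The left-out library had 30.4 CPM, within the wild-type range. Polr3e, a subunit of RNA polymerase III, stood at 238, 253 and 241 CPM against 149, 148 and 148 CPM (log2 difference 0.72, SE 0.235, adjusted p = 0.675). The other genotypes were spread for this gene, from 95.8 to 169 CPM in WT Sham and from 94.6 to 179 CPM in miR155KI ACC. Sgcb, a sarcoglycan of the dystrophin complex that holds the other 8mer, stood at 82.9, 83.8 and 78.8 CPM against 67.3, 66.0 and 76.0 CPM (log2 difference 0.23, SE 0.0686, adjusted p = 0.516). Sgpp1, a sphingosine-1-phosphate phosphatase, stood at 99.2, 107 and 104 CPM against 92.6, 81.2 and 96.0 CPM (log2 difference 0.20, SE 0.0717, adjusted p = 0.682).

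Kank1, a regulator of actin at cell adhesions, was among the smallest p-values without belonging to that set. It stood at 65.7, 44.3 and 53 CPM in miR128KO ACC and 33.2, 37.0 and 37.0 CPM in WT ACC (log2 difference 0.60, SE 0.113, adjusted p = 0.0588). With sex as a covariate, Kank1, Lrmda and Gm28438 passed and mt-Nd3 did not.

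**Figure D2:**
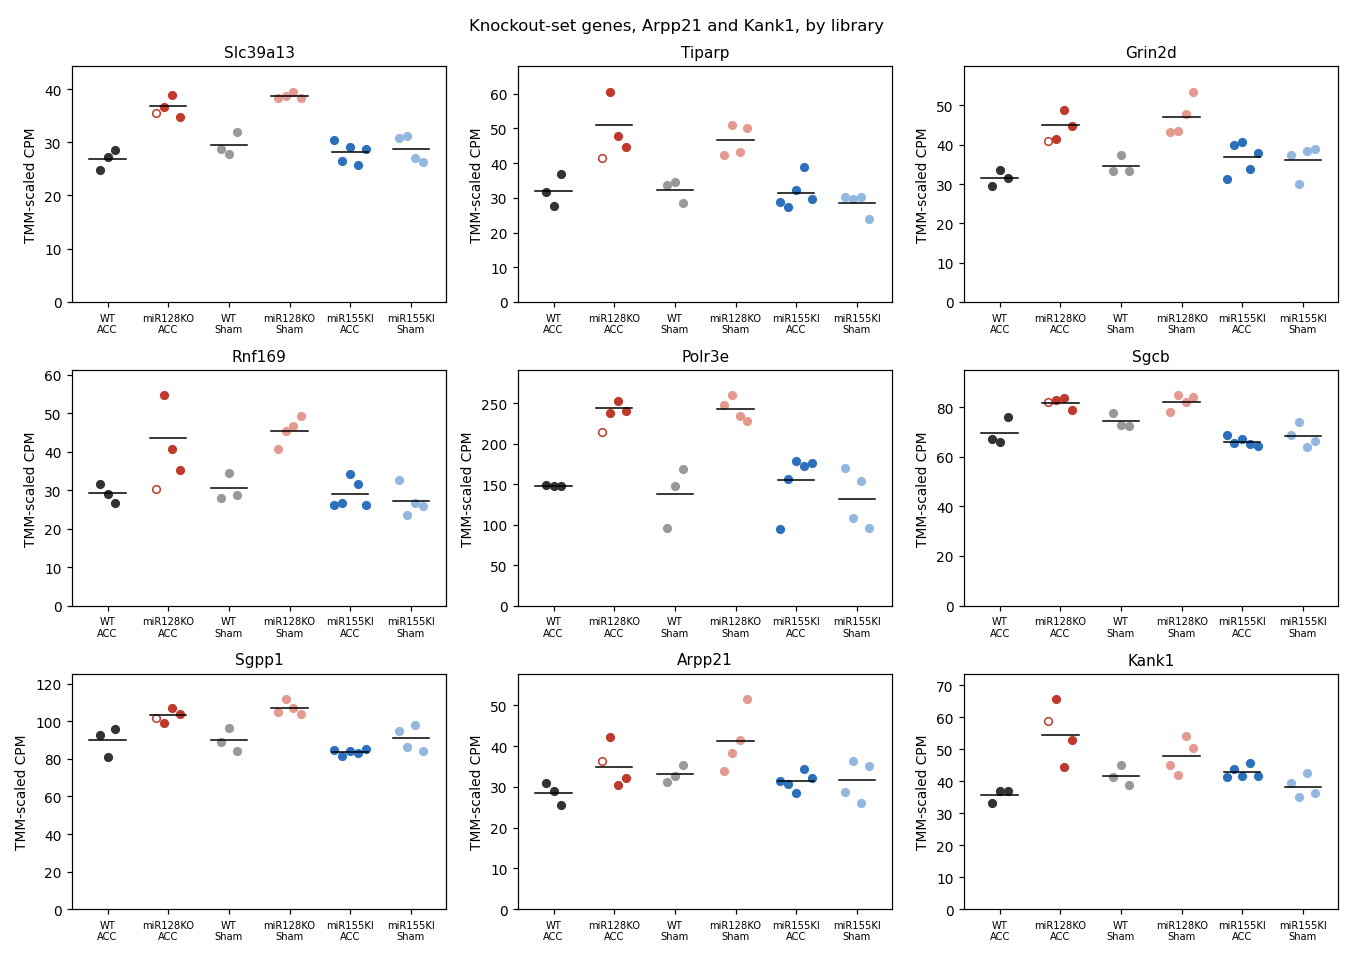
TMM-scaled CPM (vertical axes, from 0) of 9 genes in each 4 h library by group, with the group mean as a line and the left-out miR128KO ACC library 1 as an open circle. For Slc39a13 the knockout libraries lie at 34.8 to 39.5 CPM and no other library exceeds 32.0 CPM, whereas Arpp21 and Kank1 overlap between knockout and other libraries.

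The miR-128 hosts and hairpins gave no direct reading of the deletion. Poly-A libraries of fragmented mRNA do not measure the mature strand. Mir128-2 had no count in any library, and Mir128-1 stood at 0 in the 3 miR128KO ACC libraries and in 2 of the 3 WT ACC libraries, with 0.11 CPM in WT ACC 3. In Sham the hairpins summed to 0 to 0.102 CPM in the knockout and 0.0405 to 0.0935 CPM in the wild type. These levels are under 3 counts a library and are not read as a difference. R3hdm1, an RNA-binding protein gene and host of Mir128-1, stood at 65.6, 66.6 and 68.5 CPM in miR128KO ACC and 67.4, 79.9 and 65.7 CPM in WT ACC (log2 difference -0.09, SE 0.107, adjusted p = 0.924). Arpp21, a neuronal RNA-binding protein gene and host of Mir128-2, stood at 42.2, 30.4 and 32.3 CPM against 30.9, 29.1 and 25.5 CPM, and the groups overlapped. Its log2 difference was 0.29 (SE 0.142, adjusted p = 0.799), beside 0.32 (SE 0.131, adjusted p = 0.725) in Sham. Within 5 Mb of R3hdm1, 0 of 71 tested genes had an unadjusted p under 0.05. Within 5 Mb of Arpp21, 4 genes were higher and 3 lower at that level of 154 tested, or 4.55% (all genes 6.23%). None of these passed the adjusted test.

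Genes reported in other settings as miR-128 targets had a median near no difference, while their summed level was slightly higher in the clamped knockout. Of 29 tested, 0 were higher at an unadjusted p under 0.05 (all genes 3.63%), 2 were lower (all genes 2.6%) and 16 lay above 0. Their median log2 difference was 0.01 against 0.00 for all genes, and 0.02 in Sham. The summed level, in which abundant members weigh most, was 4410 to 4620 CPM in miR128KO ACC and 4290 to 4390 CPM in WT ACC, without overlap. In Sham it was 4160 to 4600 CPM in the knockout and 4290 to 4350 CPM in the wild type, with overlap. Those on the lower side were Tgfbr1, a receptor for TGF-beta (log2 difference -0.22, SE 0.0994), and Abcg1, a cholesterol exporter (-0.23, SE 0.103). The abundant members Snap25, a synaptic fusion protein (0.04, SE 0.0927), and Pea15a, a regulator of ERK (0.19, SE 0.099), did not pass. Of the 29, 12 hold an 8mer, and the median log2 difference of those was 0.00. In the ERK pathway and its feedback genes 2 of 24 were higher and 1 lower at an unadjusted p under 0.05, with a median of 0.01. Etv4, an ERK-induced transcription factor, was at 0.47 (SE 0.152). Small RNA machinery had 0 of 13 genes on either side, with Ago2 at -0.07 (SE 0.115) and Tnrc6a at -0.03 (SE 0.144).

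Sites for miR-128-3p were then counted in the longest annotated 3′ UTR of 14024 tested genes (sense strand only, each gene in its strongest class). An 8mer CACTGTGA was held by 865 genes (6.2%), a 7mer-m8 CACTGTG by 2366 (16.9%), a 7mer-A1 ACTGTGA by 1170 (8.3%) and only a 6mer ACTGTG by 2272 (16.2%). The other 7351 genes (52.4%) held none of them. In ACC the median log2 difference was 0.0001 for 8mer genes and 0.0209 for genes with no site, and 50.1% and 55.8% lay above 0. In Sham the order was the other way, with medians of 0.0202 and -0.0048 and shares above 0 of 57.6% and 48.3%. UTR length differed between the classes, with a median of 2472 bases for 8mer genes and 683 bases for genes with no site. Among genes with a 3′ UTR of at least 1220 bases, the medians in ACC were -0.0066 for 8mer and -0.0092 for no site, and in Sham 0.0202 and -0.0093. At an unadjusted p under 0.05 in ACC, 52 8mer genes (6.01%) were higher and 13 (1.5%) lower, beside 321 (4.37%) and 144 (1.96%) of genes with no site. With the longer UTRs alone, 4.39% of 8mer genes and 3.39% of genes with no site were higher. For comparison, 8mers of miR-9-5p, another neural microRNA, had medians of -0.0175 in ACC and -0.0013 in Sham, and those of let-7a-5p -0.0014 and -0.0087. No test of these classes was made, since genes are not replicates.

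**Figure D3:**
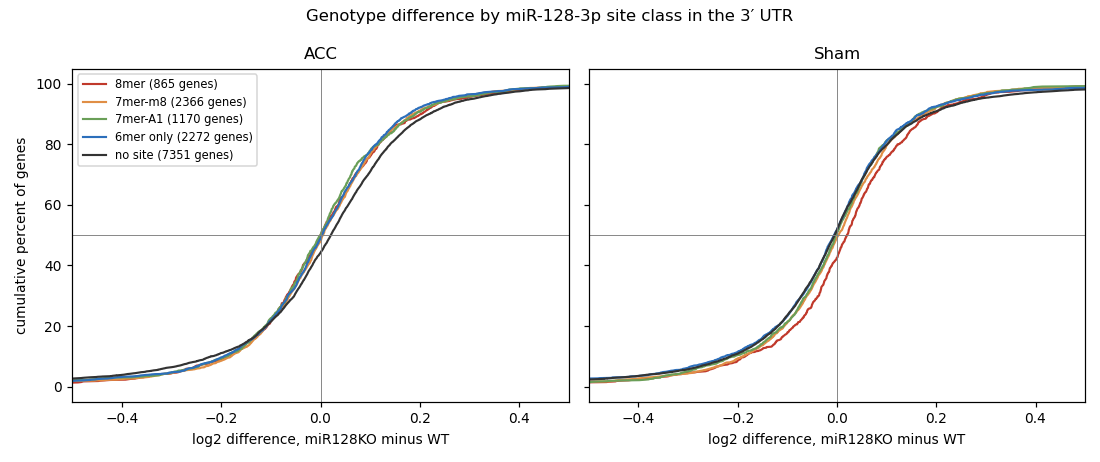
Cumulative percent of genes (vertical axis) against the log2 difference of miR128KO minus WT (horizontal axis, shown from -0.5 to 0.5) for 5 classes of miR-128-3p site, in ACC (left) and Sham (right). In ACC the site classes lie together and genes with no site are slightly to the right (medians 0.0001 for 8mer and 0.0209 for no site), whereas in Sham the 8mer line is slightly to the right (0.0202 and -0.0048).

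In clamped cords the levels of the clamp-responsive genes Hspa1b and Fos did not differ detectably between the genotypes. The test of the difference between ACC and Sham is given below. Hspa1b, an inducible Hsp70 chaperone, stood at 594, 501 and 526 CPM in miR128KO ACC and at 379, 646 and 632 CPM in WT ACC, and at 2.31 to 4.39 CPM in Sham cords of both. Its log2 difference in ACC was -0.03 (SE 0.225, 95% interval -0.51 to 0.44, adjusted p = 0.989). Fos, an immediate early transcription factor, stood at 200, 180 and 139 CPM against 72.9, 167 and 166 CPM (log2 difference 0.36, SE 0.293, 95% interval -0.26 to 0.98). The Sham differences were 0.26 for Hspa1b and 0.22 for Fos. At an unadjusted p under 0.05 the 23 heat shock genes tested had 0 on either side, with a median of 0.02, and the constitutive chaperone Hspa8 was at 0.06 (SE 0.0959).

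CC chemokines recruit monocytes and other leukocytes, and none of them passed the adjusted test. The microglial chemokine Ccl3 stood at 4.22, 17.6 and 21.6 CPM in miR128KO ACC and 14.3, 21.4 and 28.0 CPM in WT ACC (log2 difference -0.54, SE 0.49, adjusted p = 0.89). Ccl4 stood at 2.83, 13.1 and 18.0 CPM against 8.49, 18.0 and 22.3 CPM, and Ccl2 at 1.44, 2.40 and 5.14 CPM against 2.81, 4.98 and 7.19 CPM. For all 3 genes miR128KO ACC 3 was the lowest library, WT ACC 1 was the lowest of its group and the groups overlapped. Of 14 tested CC ligands 4 were lower at an unadjusted p under 0.05 (Ccl6, Ccl9, Ccl22 and Ccl28), where 2.6% of all genes were lower, 0 were higher and 4 lay above 0. Their median was -0.50 against 0.00 for all genes, and -0.23 in miR155KI ACC against the same WT ACC libraries. Ccl6 stood at 3.34, 4.2 and 3.79 CPM against 5.27, 5.31 and 5.38 CPM (log2 difference -0.49, SE 0.23), without overlap. The chemokine receptor Cx3cr1 of microglia was at -0.52 (SE 0.274). Of 9 other chemokine ligands 1 was higher (all genes 3.63%), Cxcl14 at 0.25 (SE 0.113). Of 11 chemokine receptors 1 was lower, Ackr4 at -1.13 (SE 0.539). Whether fewer cells or less RNA per cell underlies a lower level cannot be told apart in bulk tissue, here and below.

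**Figure D4:**
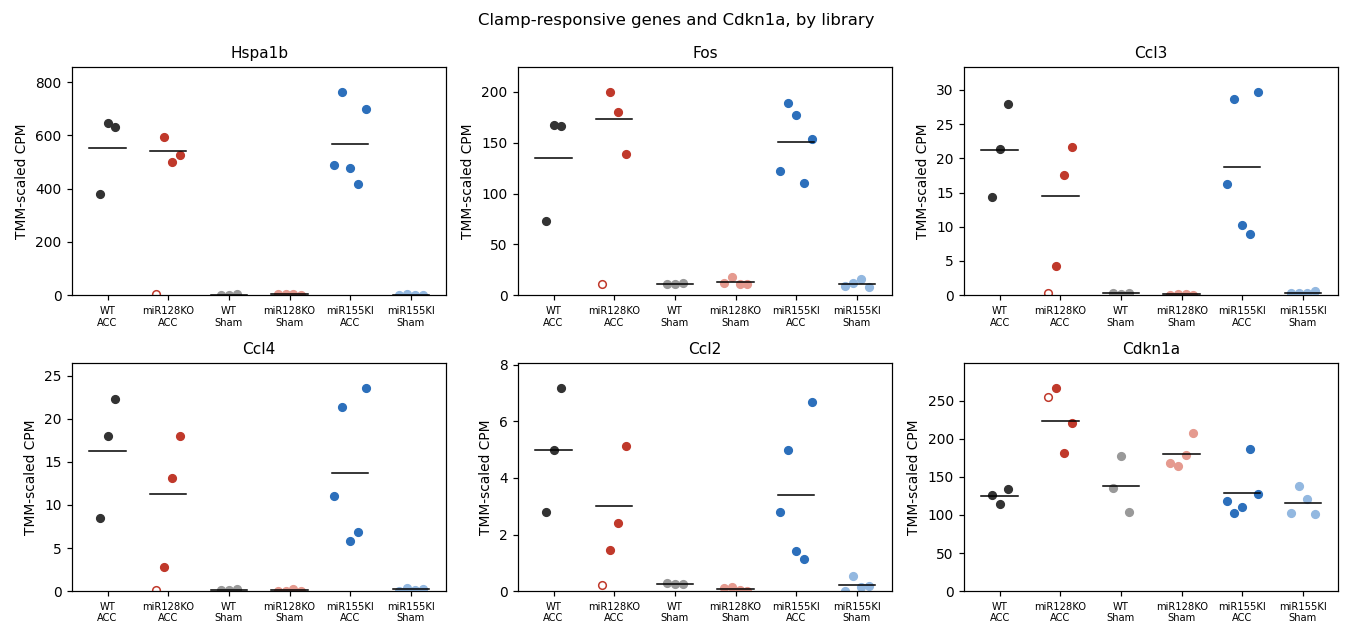
TMM-scaled CPM (vertical axes, from 0) of 5 clamp-responsive genes and Cdkn1a in each 4 h library by group, with the group mean as a line and the left-out miR128KO ACC library 1 as an open circle. Hspa1b, Fos and the chemokines overlap between the clamped genotypes and the left-out library lies with Sham, while Cdkn1a is at 182 to 267 CPM in miR128KO ACC and 115 to 134 CPM in WT ACC.

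No member of the stress and metabolic lists passed the adjusted test. Among p53 targets 6 of 18 were higher at an unadjusted p under 0.05 and 0 lower, where 3.63% of all genes were higher, with a median of 0.15 and 0.05 in Sham. Cdkn1a, the cell cycle inhibitor p21, stood at 267, 182 and 221 CPM in miR128KO ACC and 126, 115 and 134 CPM in WT ACC. Its log2 difference was 0.84 (SE 0.216, adjusted p = 0.464), the groups did not overlap, and the left-out library had 255 CPM. The other 5 were the growth arrest gene Gadd45a (0.40, SE 0.137), the sestrin Sesn1 (0.29, SE 0.105), the cyclin G gene Ccng1 (0.54, SE 0.204), Trp53inp1 (0.31, SE 0.145) and the p53 ligase Mdm2 (0.17, SE 0.0806). Ccng1 stood at 114 ± 18.3 CPM against 78.1 ± 8.81 CPM (SD, n = 3 each) without overlap, and in Sham the groups overlapped for it (log2 difference 0.12). Adjusted p-values of these 5 ran from 0.675 to 0.796.

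Glucocorticoid-responsive genes shared Cdkn1a and had 4 of 18 higher, beside the same 3.63% of all genes, with a median of 0.14. The others were Fkbp5, a chaperone of the receptor (0.75, SE 0.281), the feedback inhibitor Errfi1 (0.37, SE 0.115) and the mTOR inhibitor Ddit4 (0.34, SE 0.107). Fkbp5 stood at 140, 122 and 178 CPM against 99.2, 74.3 and 89.2 CPM, without overlap, whereas Sgk1, the most abundant member, was at 0.04 (SE 0.108). In cholesterol synthesis and uptake 5 of 22 were higher (all genes 3.63%), 0 lower and 21 lay above 0, with a median of 0.11 in ACC and 0.11 in Sham. The enzymes were Mvk (0.32, SE 0.0989), Pmvk (0.24, SE 0.104), Mvd (0.24, SE 0.116), Cyp51 (0.23, SE 0.0844) and Nsdhl (0.21, SE 0.0945). Mvk stood at 36.0, 39.8 and 38.7 CPM against 31.0, 26.6 and 34.0 CPM. Oligodendrocytes are a main site of this pathway, and their markers summed to 42400 to 44500 CPM in miR128KO ACC and 30900 to 42000 CPM in WT ACC. The part of that sum in the cholesterol values was not tested.

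Among immediate early genes 4 of 33 were higher (all genes 3.63%), 0 lower and 27 above 0, with a median of 0.21. They were Fosl2 (0.40, SE 0.122), Klf4 (0.53, SE 0.229), Egr4 (0.68, SE 0.307) and Fosb (0.76, SE 0.356). Fosb stood at 184, 76.3 and 67.8 CPM against 38.3, 84.6 and 70.7 CPM, so miR128KO ACC 3 set its mean. The summed level of the list was 1680 to 2060 CPM in the knockout and 1100 to 1750 CPM in the wild type. Interferon-responsive genes had 1 of 30 lower, near the 2.6% of all genes, and 5 above 0. Their median was -0.24, beside -0.15 in Sham and -0.25 in miR155KI ACC against the same WT ACC libraries. The gene on the lower side was Ifit3 at 6.17, 9.9 and 9.5 CPM against 12.5, 14 and 14 CPM (log2 difference -0.66, SE 0.215, adjusted p = 0.664). Reactive astrocyte genes had 1 of 23 higher, the protease inhibitor Serpina3n (0.32, SE 0.148), and 1 lower, complement C3, at 103, 68.2 and 116 CPM against 173, 148 and 248 CPM (log2 difference -0.99, SE 0.27, adjusted p = 0.495), while Gfap was at -0.08 (SE 0.16). Against the same WT ACC libraries, C3 was at -1.02 in miR155KI ACC. Unfolded protein and integrated stress genes had 1 of 24 higher, hypoxia genes 1 of 23 (the glycolytic enzyme Ldha at 0.21, SE 0.0855), cytokines and NF-kB feedback genes 2 of 30 (Nfkbia at 0.32, SE 0.102, and Il4ra at 0.29, SE 0.131) and endothelial activation genes 1 of 21, with 0 lower in each.

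Of the neuronal channel and receptor genes tested, 0 passed the adjusted test. In GABA and glycine signalling 1 of 33 genes was higher, Gabra2 as above, and 4 were lower at an unadjusted p under 0.05, with a median of -0.05. Those on the lower side included the receptor subunits Gabra3 (-0.17, SE 0.0717) and Gabrb2 (-0.65, SE 0.306). Gabra3 stood at 126, 117 and 118 CPM against 136, 136 and 134 CPM without overlap, and its Sham difference was -0.02. Gad1, which makes GABA, was at 0.09 (SE 0.0867). Of 21 voltage-gated sodium and calcium channel genes 4 were lower (Scn1a -0.36, SE 0.149; Scn9a -0.30, SE 0.135; Scn4b -0.28, SE 0.125; Cacnb4 -0.24, SE 0.0961), where 2.6% of all genes were lower, 0 were higher and 4 lay above 0. The median was -0.10 in ACC and 0.09 in Sham. In voltage-gated potassium channels 1 of 22 was lower, Kcnh7 at -0.40 (SE 0.16). Glutamate signalling had 4 of 33 higher (Grin2d, Grin2c, Grik5 and Shank3), where 3.63% of all genes were higher, and 1 lower, the vesicular transporter Slc17a7 at -1.08 (SE 0.43), with a median of -0.04.

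**Figure D5:**
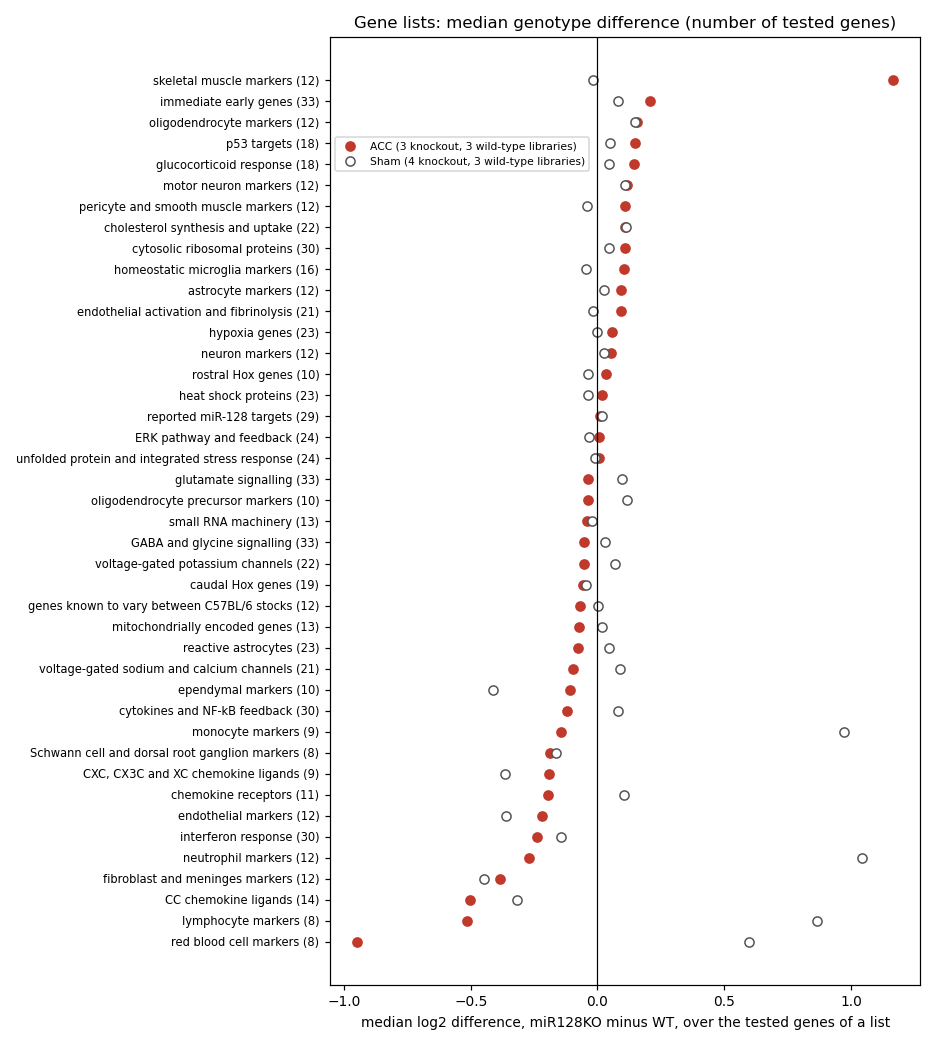
Median log2 difference of miR128KO minus WT (horizontal axis) over the tested genes of each list with at least 8 of them (vertical axis, number tested in brackets), in ACC (filled) and Sham (open). Most medians lie near 0, and lists of rare cells such as skeletal muscle (1.17 in ACC) and red blood cells (-0.95 in ACC) lie far out, with 0 genes at an unadjusted p under 0.05 in either. Neutrophil markers lie at -0.27 in ACC and 1.04 in Sham.

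No cell marker passed the adjusted test. Over all genes, 3.63% were higher and 2.6% lower at an unadjusted p under 0.05. At an unadjusted p under 0.05 neuron markers had 0 of 12 genes on either side and a median of 0.05, motor neuron markers 1 of 12 higher (Isl2 at 0.91, SE 0.318, between 1.29 and 3.37 CPM), astrocyte markers 1 of 12 higher (the connexin Gjb6 at 0.28, SE 0.131) and oligodendrocyte precursors 0 of 10. Oligodendrocyte markers had 2 of 12 higher, among them the myelin gene Mbp (0.27, SE 0.116), and the list's median was 0.16 in ACC and 0.15 in Sham. Homeostatic microglia markers had 2 of 16 higher, the complement genes C1qa (0.30, SE 0.127) and C1qc (0.26, SE 0.123). Of the 16, 9 lay above 0, with a median of 0.10 in ACC and -0.045 in Sham, and the member Cx3cr1 was at -0.52 (SE 0.274). Endothelial markers had 1 of 12 higher, the lipid transporter Mfsd2a (0.33, SE 0.143). Only 3 of the 12 lay above 0, with a median of -0.22 in ACC and -0.36 in Sham. Pericyte markers had 0 of 12 on either side. Fibroblast and meninges markers had 3 of 12 lower (Fmod -0.64, SE 0.264; Aldh1a2 -0.47, SE 0.218; Slc22a6, which is under 1 CPM in all libraries shown) and 1 above 0. Fibroblast and meninges markers summed to 591 to 685 CPM in miR128KO ACC and 691 to 805 CPM in WT ACC, without overlap. Their median was -0.38 in ACC and -0.45 in Sham, and -0.62 in miR155KI ACC against the same WT ACC libraries. Ependymal markers had 1 of 10 higher and 2 lower. Neutrophil, monocyte, lymphocyte, red blood cell, Schwann cell and skeletal muscle markers had 0 on either side. Neutrophil markers summed to 28.8 to 109 CPM in WT ACC and 36.0 to 89.4 CPM in miR128KO ACC, and red blood cell markers to 90.2 to 485 CPM and 94.9 to 196 CPM. Rostral and caudal Hox genes, which report the level of the cord taken, had 0 of 10 and 0 of 19, and ribosomal protein genes 1 of 30 higher. Mitochondrially encoded genes had 2 of 13 lower, mt-Nd3 and mt-Nd4l (-1.32, SE 0.603), and mt-Nd4l stood at 2.15 to 17.2 CPM within miR128KO Sham.

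Sham cords gave the genotype comparison in libraries not shared with the clamped one. There 0 of 19581 genes passed in either direction, and at an unadjusted p under 0.05 there were 586 higher genes (2.99%) and 662 lower genes (3.38%), or 6.37% together, while DESeq2 called 16 higher and 8 lower. Of the 1219 genes with an unadjusted p under 0.05 in ACC, 68.0% had the same sign in Sham, where 54.5% of all genes did, and 149 (12.2%) were also under 0.05 with the same sign, beside 6.37% of all genes in Sham in either direction. Across genes, which are not independent replicates, the ACC and Sham differences had a Pearson r of 0.37 and a Spearman rho of 0.12. In Sham the groups did not overlap for 790 higher genes (4.03%) and 855 lower genes (4.37%). Of 1944 genes without overlap in ACC, 144 (7.41%) did not overlap in the same direction in Sham and 41 in the opposite direction.

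The test of whether the genotype difference itself changed with clamping called 0 genes higher and 0 lower, with 404 (2.06%) and 348 (1.78%) at an unadjusted p under 0.05, or 3.84% together, and DESeq2 also called none. Without WT Sham 1 it called Gabra2 and Gm28438. The smallest p-values by the naming rule were those of Xpo1, Ptafr, Hsd17b14, Ptprcap, Adra2a and Lilrb4a, each with an adjusted p of 0.995. The nuclear export receptor Xpo1 stood at 111, 97.3 and 108 CPM in miR128KO ACC and 115, 123 and 130 CPM in WT ACC, and in Sham at 111 ± 7.52 CPM (SD, n = 4) and 94.7 ± 1.9 CPM (SD, n = 3) (interaction -0.44, unadjusted p = 0.000513). Adra2a, the alpha2A adrenoceptor, was at 0.26 in ACC and -0.13 in Sham. Ptafr and Lilrb4a, myeloid receptors, were at -0.54 and -0.59 in ACC and at 1.04 and 1.36 in Sham, at levels of at most 4.93 CPM.

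The miR155KI ACC cords formed a second clamped reference, and the comparisons share libraries. Against them miR128KO ACC had 28 genes higher (0.143%) and 10 lower (0.0511%), and miR155KI ACC against WT ACC had 2 higher (0.0102%) and 2 lower (0.0102%), 0.0204% together. At an unadjusted p under 0.05 the first comparison had 1191 genes higher (6.08%) and 961 lower (4.91%), and the second 369 higher (1.88%) and 481 lower (2.46%), or 4.34% together. Slc39a13 was at 0.39 against miR155KI (adjusted p = 0.0318), beside 0.45 against WT ACC. Tiparp was at 0.70 (adjusted p = 0.00767), beside 0.67, and Gabra2 at 1.49 (adjusted p = 0.0078), beside 1.62. Gm28438 was at 4.29 (adjusted p = 0.000275) and mt-Nd3 at -4.30 (adjusted p = 0.00819). Cd59a, an inhibitor of complement, stood at 77.6, 50.6 and 49.4 CPM in miR128KO ACC, 35.8, 34.8 and 46.5 CPM in WT ACC and 25.6 to 32.8 CPM in miR155KI ACC, with 0.98 against miR155KI (adjusted p = 0.000222) and 0.60 against WT (adjusted p = 0.232). Ide was at -1.03 against miR155KI (adjusted p = 0.00206) and at -0.05 against WT.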

How the data were processed

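Counts per gene are as deposited by the authors, whole numbers for 54532 genes in 23 libraries of the 4 h table. The submitters' processing notes name fastp, HISAT2 2.0.5 (build GRCm38) and featureCounts 1.5.0-p3, and per the labels' protocols the libraries were poly-A selected and directional. The strand setting of counting is not given in the sources used here. Coordinates and lengths of genes came with the table, per the file headers.

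Of the 23 libraries, 22 in 6 groups entered 1 edgeR 4.0.16 fit (R 4.3.3): filterByExpr with a minimum count of 10, TMM, robust quasi-likelihood tests with 16 residual degrees of freedom and Benjamini-Hochberg adjustment over 19581 genes at 0.05. The SE is the log2 difference divided by the square root of F. DESeq2 1.42.0 was an alternative, and the fit was tested on simulated counts. CPM are TMM-scaled, SDs are across mice, and intervals cover 95%. Seed sites come from GENCODE M21 3′ UTRs at a mean of at least 1 CPM.

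The gene lists, the members and the tests were chosen with earlier results of these data known. The naming rule took the 12 largest passing differences each way (none, since Gm28438 is a predicted gene), a fixed set of genes, the 2 most abundant members of each list, the 6 smallest interaction p-values and any passing gene within 5 Mb of a host gene (none). List members at an unadjusted p under 0.05, the knockout set, Kank1, Lrmda, Aim2 and Cd59a were named after their values were seen. Same-numbered knockout and wild-type mice are different animals. A few list members that were counted are not reported here by name.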

Additional observations from a re-analysis of the deposited data

Results flagged for a closer look

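In the miR128KO ACC library 1 that the comparison does not use, 5 genes already seen to be higher in the knockout were checked. All 5 stood above the WT ACC range, although the cord showed no clamp response. The share of all genes above that range was not counted. Gm28438 was at 61.3 CPM against 2.68 to 4.86 CPM, Gabra2 at 171 CPM against 48.4 to 56.6 CPM, Slc39a13 at 35.5 CPM against 24.8 to 28.5 CPM, Tiparp at 41.4 CPM against 27.7 to 36.8 CPM, and Grin2d at 41 CPM against 29.6 to 33.6 CPM.

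Single libraries lay far from the rest of their group in 8 of 79 gene and group pairs checked. Chance gives about 1 in 20 for independent pairs, but these pairs share libraries, so no excess can be read from the count. In miR128KO Sham, mouse 3 had Xist at 557 CPM and Ddx3y at 0 CPM, against at most 0.0722 CPM and 99.3 to 110 CPM in the others. That mouse was the only one of its group without Y-linked counts, so these flags are a single observation. In miR155KI ACC, Polr3e was at 94.6 CPM in mouse 1 against 156 to 179 CPM, Nnt at 0 CPM in mouse 1 against 0.66 to 0.866 CPM, and Aim2 at 6.85 CPM in mouse 3 against 5.07 to 5.31 CPM. In miR155KI Sham, Tiparp was at 24.0 CPM in mouse 4 against 29.8 to 30.3 CPM, Grin2d at 30 CPM in mouse 2 against 37.4 to 38.9 CPM, and Ccl3 at 0.567 CPM in mouse 4 against 0.303 to 0.343 CPM.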

How the results depend on the processing

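The count for clamped cords was small under every setting run but not stable. From 1 higher and 0 lower genes, it went to 17 and 10 with DESeq2, 5 and 3 with no filter, 7 and 3 with only the groups compared, 5 and 6 with library 1 put back, 2 and 1 with sex as a covariate, and 2 lower genes with upper quartile factors, with a filter of 1 CPM or after thinning to the smallest total. Under the replicate block 0 higher and 0 lower genes were left. Settings added after seeing the data gave 3 and 4 with the 11 ACC libraries, 2 and 5 without WT Sham 2 and 3, and 13 higher with only libraries lacking Y-linked counts, where 1 knockout library is assumed to vary like the other groups. Leaving out 1 library gave 0 to 1 higher and 0 lower. Gm28438 was lost without WT ACC 1, 2 or 3 or miR128KO ACC 3, 4 or 5, and without miR128KO ACC 4 the gene called was Kank1. Of 19 alternatives, Gm28438 was called in 11, mt-Nd3 in 9, Lrmda in 8, Kank1 in 6 and Gabra2 in 5. The cause of these changes was not tested.

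In Sham the count went from 0 and 0 to 16 and 8 with DESeq2, 1 and 2 with no filter, 3 higher under the replicate block, 1 higher after thinning, and 1 and 1 with only libraries lacking Y-linked counts. Leaving out 1 library gave 0 higher and 0 to 3 lower, the 3 being mt-Nd3, mt-Tg and mt-Tr without WT Sham 3. The interaction stayed at 0 under the planned settings except without WT Sham 1 (2 higher), a range of 0 to 2 higher and 0 lower.

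Against miR155KI ACC, 28 higher and 10 lower became 88 and 42 with DESeq2, 54 higher with no filter, 57 and 16 with library 1 put back, 8 and 3 under the replicate block, and 15 and 6 with sex as a covariate, with 6 to 45 higher and 1 to 10 lower on leaving out 1 library. The higher count fell to 7 without miR128KO ACC 3, 12 without miR128KO ACC 4, 6 without miR128KO ACC 5, 12 without miR155KI ACC 2 or 3 and 18 without miR155KI ACC 5, and was 45 without miR155KI ACC 4. For miR155KI ACC against WT ACC, 2 and 2 became 8 and 9 with DESeq2 and 0 lower with only the groups compared, with 0 to 3 each way on leaving out 1 library (0 higher without WT ACC 1, 2 or 3, and 0 lower without WT ACC 3).

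Same-numbered mice did not deviate together (r of 0.0593, -0.115 and 0.131 in Sham and -0.0278 in ACC), so the block is no pairing. In the fit of 22 libraries, differences of several times the SE could fail the adjusted test, as mt-Nd3 (-4.36, SE 0.68) and Gabra2 (1.62, SE 0.266) did. Both were called when only the groups compared were fitted, with the same 3 libraries a group. What set this change was not tested. A gene that did not pass may therefore still differ. Levels under the floor of 3 counts, 0.108 to 0.176 CPM in the 6 libraries, are uncertain. Some are printed above, such as Lrmda in miR128KO ACC 3 and Mir128-1 in WT ACC 3.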

Other observations

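Other genes with small p-values in the clamped comparison, chosen after their values were seen, had groups that did not overlap and did not pass edgeR's adjusted test. Igsf21, a synaptic adhesion protein of inhibitory synapses, stood at 25.9, 26.2 and 23.8 CPM in miR128KO ACC and 19.6, 18.4 and 19.2 CPM in WT ACC (log2 difference 0.41, SE 0.0928, adjusted p = 0.193), beside 0.08 in Sham. Grp, the gastrin-releasing peptide of dorsal horn itch circuits, stood at 10.9, 14.3 and 12.1 CPM against 8.61, 6.41 and 8.07 CPM (0.70, SE 0.158, adjusted p = 0.193), beside 0.40 in Sham. Vps50, a subunit of an endosomal recycling complex, stood at 57.3, 58.4 and 54.2 CPM against 67.3, 70.3 and 72.7 CPM (-0.31, SE 0.0685, adjusted p = 0.193), beside -0.06 in Sham. DESeq2 called all 3 in ACC and none of them in Sham, and the difference between ACC and Sham had an unadjusted p of 0.0152 for Igsf21, 0.179 for Grp and 0.0153 for Vps50.

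Markers of blood-borne cells differed in sign between the treatments, without a test of that difference over a list. Median log2 differences were -0.27 in ACC and 1.04 in Sham for neutrophil markers, whose summed level was 94.3 to 223 CPM in miR128KO Sham and 65.5 to 89.5 CPM in WT Sham.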
